A study of Mus musculus with 68 samples.

Results

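The growth hormone (GH) and insulin-like growth factor (IGF) pathway was followed in mouse growth plate cartilage through 10 genes chosen by name. They are the ligand gene Igf1, the receptor genes Ghr, Igf1r and Igf2r, the IGF binder genes Igfbp3, Igfbp4, Igfbp5, Igfbp6 and Igfbp7, and the protease gene Pappa, with Igf2 left out. All 10 were rows of a table of 23420 gene symbols, and they were chosen with earlier results of these data known. The cartilage came from mice of mixed background at postnatal day 28 (P28), day 3 (P3) and day 2 (P2), and the labels name no allele and no agent for any group. Cells of the resting, hypertrophic and proliferative zones were taken by laser capture from frozen sections of 10 microns, and RNA of each capture was amplified and sequenced by SMART-seq2, which copies whole transcripts from few cells. Ethanol-fixed sections gave 8 resting, 9 hypertrophic and 9 proliferative libraries at P28, and 9 resting, 8 hypertrophic and 8 proliferative libraries at P2. Xylene-fixed P28 sections gave 4 resting, 5 hypertrophic and 5 proliferative libraries, and 1 P3 animal gave 1 ethanol library per zone. For P28 animal B and P2 animal D the labels use the plural, and either may be a pool of mice.

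GH from the pituitary acts through the receptor encoded by Ghr and raises IGF-1 output in the liver and in local tissues, growth plate cartilage among them. IGF-1 signals through the tyrosine kinase encoded by Igf1r. The product of Igf2r takes up IGF-2 for breakdown and carries mannose 6-phosphate tagged enzymes to lysosomes. Secreted IGF binding proteins hold the ligands away from the receptor or keep them near cells, and the protease PAPP-A, encoded by Pappa, frees IGF by cutting IGFBP-4. Mice that lack the ligand, its receptor or the GH receptor have short bones, and these signals act on chondrocytes.

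Promoter sequences are shown for Igf1, Igf2r and Igfbp7, 3 genes whose zone or age differences passed the test below. They run from 250 bases before to 50 bases after a start of the gene in RefSeq (GRCm38.p6), 5′ to 3′ on the strand of the gene, and capitals mark CG dinucleotides. The windows are chr10:87860861-87861160 on the plus strand for Igf1, chr17:12769657-12769956 on the minus strand for Igf2r and chr5:77407996-77408295 on the minus strand for Igfbp7. The Igf1 window lies inside the gene as placed by GENCODE, past the start at 87858265, and does not cover that start.
Igf1: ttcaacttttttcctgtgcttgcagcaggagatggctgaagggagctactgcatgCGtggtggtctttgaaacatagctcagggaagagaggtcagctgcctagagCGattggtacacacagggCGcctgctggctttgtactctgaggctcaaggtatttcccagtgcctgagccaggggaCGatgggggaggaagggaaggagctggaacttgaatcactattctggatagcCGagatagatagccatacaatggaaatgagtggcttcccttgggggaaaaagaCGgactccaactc
Igf2r: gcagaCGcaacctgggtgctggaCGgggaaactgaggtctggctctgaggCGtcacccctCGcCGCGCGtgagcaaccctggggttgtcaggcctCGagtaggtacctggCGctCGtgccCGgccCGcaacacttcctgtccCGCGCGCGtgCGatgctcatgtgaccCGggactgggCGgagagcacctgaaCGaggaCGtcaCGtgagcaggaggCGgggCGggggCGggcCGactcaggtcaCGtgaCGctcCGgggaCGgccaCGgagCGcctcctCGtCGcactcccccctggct
Igfbp7: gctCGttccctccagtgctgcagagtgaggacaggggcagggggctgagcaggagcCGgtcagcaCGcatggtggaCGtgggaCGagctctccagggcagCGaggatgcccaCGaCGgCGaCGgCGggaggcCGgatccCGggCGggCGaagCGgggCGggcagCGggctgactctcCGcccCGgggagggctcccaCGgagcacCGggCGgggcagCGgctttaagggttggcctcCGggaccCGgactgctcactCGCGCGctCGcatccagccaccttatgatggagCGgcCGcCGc
The Igf1 window holds 6 CG dinucleotides, close to the median of 7 over the 32851 promoters of the table, whereas the Igf2r window holds 34 and the Igfbp7 window 33, both above the upper quartile of 20. Of the 10 genes, 9 matched the table, Ghr with 2 windows. The window of Igf1r holds 48 CG dinucleotides, that of Igfbp3 37, that of Igfbp4 27, those of Ghr 23 and 8, that of Igfbp5 10 and that of Igfbp6 8. A TATA box, searched as TATAAA on both strands and found in 13.6% of all promoters, is present at -28 on the plus strand in the Igfbp4 window. It is also present on the minus strand at -188 in the second Ghr window and at -148 in the Igfbp6 window. The STAT recognition motif TTCNNNGAA, searched on both strands and held by 8.3% of all promoters, is in none of the member windows.

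Libraries held 748 to 3347722 counts, and the 26 ethanol libraries of P28 and P2 with at least 100000 counts entered the tests, summed per animal and zone into 21 sums of 108601 to 3347722 counts. These totals include the symbols Rn45s, Lars2 and Glra2. Counts outside them made up 54.9% to 90.72% of resting, 7.924% to 58.18% of hypertrophic and 36.55% to 83.37% of proliferative sums. The share was lowest in the hypertrophic sum of each animal with all zones, a limit on its low and 0 counts. Each zone then had 3 animals at P28 (A, B and D) and 4 at P2 (A, D, F and G for resting, A, C, D and G for hypertrophic, A, D, E and G for proliferative), with all zones from A, D and G. Levels are counts scaled to the effective library size by TMM (TMM CPM), and fold changes come from 1 edgeR quasi-likelihood fit with the animal as a block. Resting zone markers (Ucma, Pthlh, Sfrp5, Wif1, Apoe) summed to 1453 to 1848 TMM CPM in P28 resting, 0 to 164.5 in P28 hypertrophic and 457 to 934.4 in P28 proliferative sums, and to 660.5 to 1813 in P2 resting, 28.5 to 278.7 in P2 hypertrophic and 134.2 to 348.8 in P2 proliferative sums. Hypertrophic markers (Col10a1, Ihh, Ibsp, Alpl, Pth1r, Panx3) summed to at least 66090 TMM CPM in P28 hypertrophic and 8284 in P2 hypertrophic sums. Elsewhere they reached 8532 at most, in the resting sum of P28 animal A, against 355.9 and 800.1 in the other P28 resting sums. Wif1 went the other way at P2, with a median of 138 TMM CPM in hypertrophic and 0.657 in resting sums. Panx3 had higher medians in proliferative than in hypertrophic sums, 1146 against 435.6 at P28 and 407.2 against 310.3 at P2. The other markers of these lists had their highest median in their own zone at both ages. Markers of perichondrium and fibroblasts (Dcn, Lum, Col1a1, Col1a2, Col3a1, Postn, Pdgfra) were 139 to 745.8 TMM CPM in P28 resting, 415 to 2038 in P28 hypertrophic and 731.9 to 1429 in P28 proliferative sums. At P2 they were 834.8 to 6087 in resting, 261.9 to 1665 in hypertrophic and 332.3 to 927.5 in proliferative sums. Cartilage markers summed to 8740 or more in every sum. Endothelial, blood and muscle lists reached at most 64.5, 63.9 and 355.8 TMM CPM, and the osteoblast list reached 764.6. In the resting sum of P2 animal G, counts of both kinds of sex-linked gene were found, 128 for Xist and 747 for Y-linked genes, and it may stem from more than 1 mouse. The proliferative sum of P28 animal D joins 1 library with 267 Xist and 0 Y-linked counts to another with 0 Xist and 4 Y-linked counts, while 76 and 179 Y-linked counts were found in resting and hypertrophic libraries of D, so this sum may mix mice under 1 animal label. In such captures, fewer cells of a type and less RNA per cell cannot be told apart.

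Of the 10 members, 8 passed the filter on low counts in the zone fit. Igfbp3 had 0 counts in all 21 sums, and Igfbp6 had 7 counts in 1 P2 resting sum and 1 count in 1 P28 proliferative sum. In resting against hypertrophic zone at P28, 2 members rose and 0 fell, while 1.77% of all 6958 genes tested were called. In the same comparison at P2, 3 rose and 0 fell, against 3.77% of all genes. DESeq2 called 4 members in it at P28, with Igfbp4 and Igfbp7 added, against 4.94% of all genes, and 4 at P2, with Igfbp4 added, against 6.78%. The P28 call of Igfbp4 rests on 4 counts in 1 resting sum against 0 in hypertrophic sums, and its edgeR adjusted p was 0.574. Every edgeR call between zones among the members was thus an increase in the resting over the hypertrophic zone. Of the genes called, Igf1 and Pappa passed the filter on low counts only because of their resting sums, which ties them to this direction.

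No member was called by edgeR in resting against proliferative zone at P28, where 0.561% of all genes were, and 1 member had an unadjusted p under 0.05, against 10.5% of all genes. DESeq2 called 1 there, Igf1, against 1.84%. In the same comparison at P2 edgeR called none (0.259% of all genes), 5 members had an unadjusted p under 0.05 (4.14%) and DESeq2 called 0 (0.474%). In hypertrophic against proliferative zone at P28 edgeR called none (1.12%), 1 member had an unadjusted p under 0.05 (12.2%) and DESeq2 called 0 (3.09%). At P2 edgeR called none (2.31%), 3 members had an unadjusted p under 0.05 (14.2%), and DESeq2 called 3, with Ghr higher and Igfbp4, at 0 counts in hypertrophic and 3 in proliferative sums, and Igf2r lower in the hypertrophic zone (5.3%).

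The difference between the ages in a zone effect was called by edgeR for no member. For resting against proliferative 0.144% of all genes were called, 1 member had an unadjusted p under 0.05 (6.78% of all genes) and DESeq2 called 0 (0.632%). For hypertrophic against proliferative 0% were called, 0 members had an unadjusted p under 0.05 (5.94%) and DESeq2 called 0 (1.06%). For resting against hypertrophic 0.273% were called, 3 members had an unadjusted p under 0.05 (9.86%) and DESeq2 called 1, Igf2r (2.03%). Between the ages within a zone, 1 of 6 tested members rose in the resting zone at P28 (0.872% of 3327 genes called), and DESeq2 called the same gene, Igf1 (3.57%). In the proliferative zone edgeR called none of 3 (0.679% of 4712 genes), 0 had an unadjusted p under 0.05 (5.62%) and DESeq2 called 0 (1.37%). In the hypertrophic zone edgeR called none of 1 (0.102% of 1963 genes), 0 had an unadjusted p under 0.05 (5.25%) and DESeq2 called 0 (1.87%).

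The median log2 fold change of the 8 tested members was 2.43 in resting against hypertrophic at P28, and 1.10 with Igfbp4 and Pappa, which had 0 hypertrophic counts, set at least 1.72-fold and 17.2-fold higher, beside a median of -0.27 over all genes tested. In the same comparison at P2 it was 3.58, with or without such bounds, beside 0.52 over all genes. For resting against proliferative it was 1.21 at P28 beside -0.81, and 3.75 at P2 beside 0.15. For hypertrophic against proliferative it was -1.56 at P28 (-1.50 with such bounds, over 7 members) beside -0.52, and -2.09 at P2 (-2.38 over 6 members) beside -0.36. RLE in place of TMM scaling moved the all-gene median of resting against proliferative at P28 by 0.57 and that of resting against hypertrophic at P28 by 0.39, so the P28 values are best read against the all-gene medians. Igf1, Igfbp4, Igfbp5 and Pappa would not have passed the filter on low counts without their resting sums, which ties them to higher resting values. The medians of members are therefore a description and no test of the pathway.

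**Figure D1:**
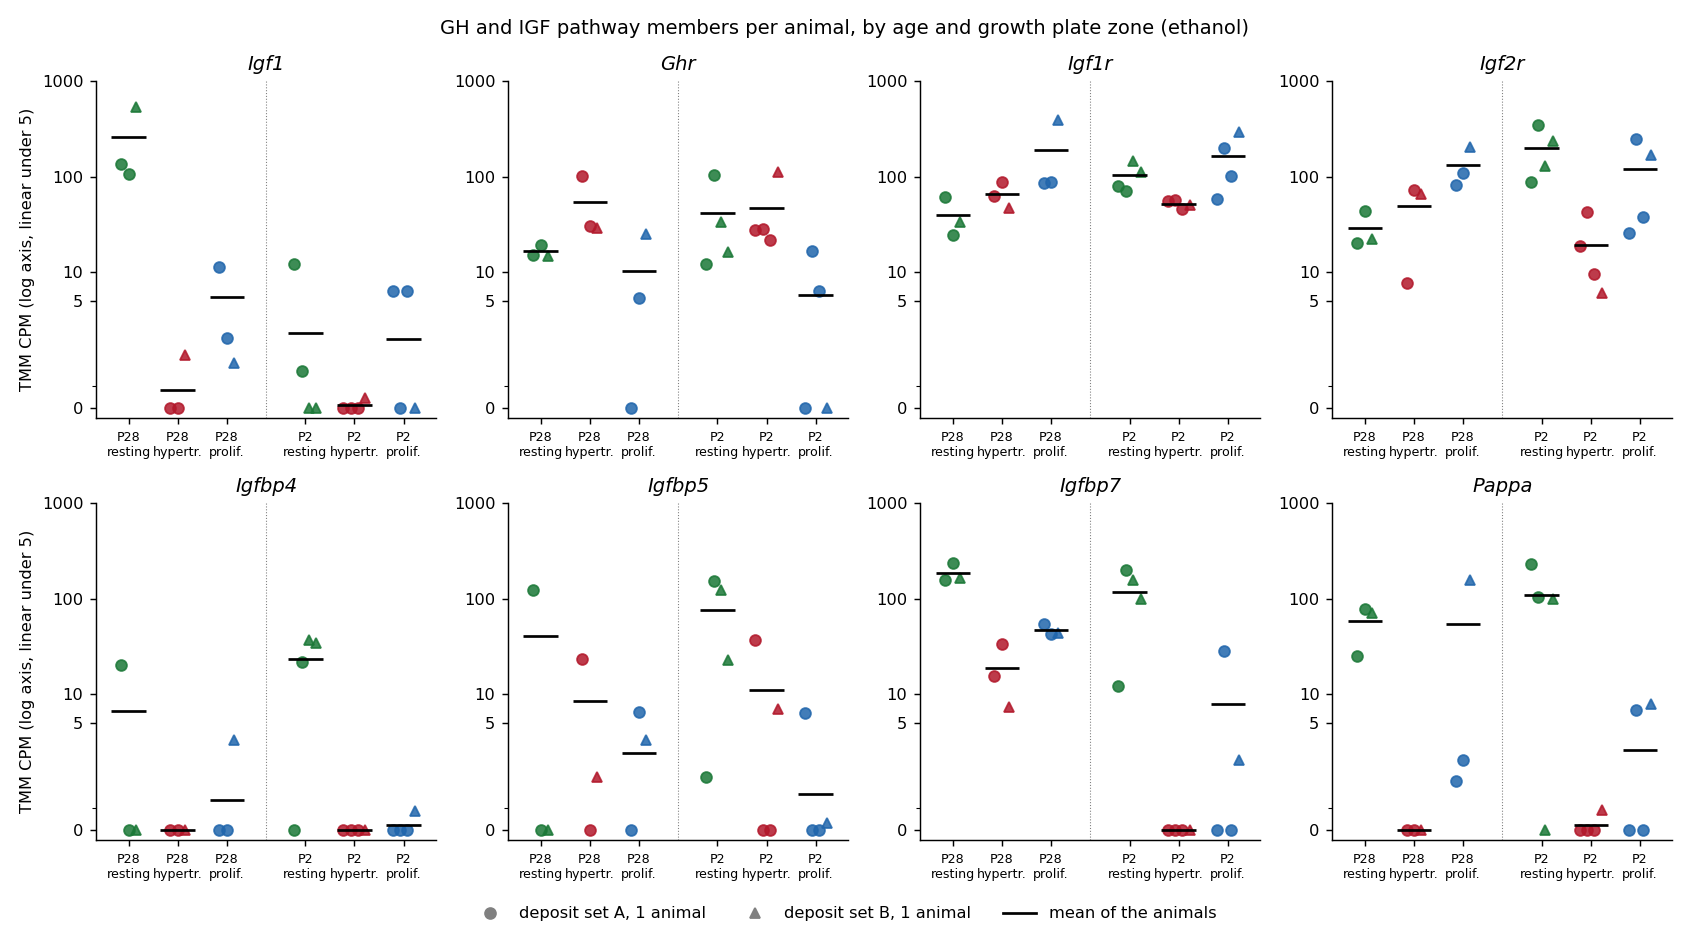
TMM CPM of the 8 tested members (symmetric log axis, linear under 5) in each animal by age and zone, with circles for deposit set A, triangles for deposit set B and bars for the mean. Igf1 lies at 107 or above in all 3 P28 resting sums and at 12.3 or below in all other sums.

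Igf1, the gene of the ligand (ENSMUSG00000020053.18, chr10:87858265-87937042, plus strand, GRCm38), was abundant in the resting zone at P28 and scarce in every other tested zone and age. At P28 it stood at 137, 107 and 541 TMM CPM in the resting sums of animals A, B and D, from 27, 22 and 144 counts, at 0, 0 and 2.46 TMM CPM in their hypertrophic sums and at 11.3, 3.27 and 2.11 TMM CPM in their proliferative sums. The resting values were above the other zones in 3 of 3 animals, without overlap. At P2 it stood at 12.3, 1.73, 0 and 0 TMM CPM in the resting sums of animals A, D, F and G, from 5, 2, 0 and 0 counts. The hypertrophic sums at P2 held 1 count and the proliferative sums 2 counts in all, so the zones overlapped at this age.

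In P28 resting against hypertrophic zone, Igf1 rose by 7.80 ± 1.99 on the log2 scale (SE; edgeR adjusted p = 0.0108). It passed the filter on low counts only through its P28 resting sums, which ties it to a higher value there. Over the 3 animals the pooled ratio was 249.5, with a 95% counting interval of 44.3 to 9904, from 193 counts in resting against 1 in hypertrophic sums. Against the proliferative zone the log2 difference was 5.21 ± 1.65 with an edgeR adjusted p of 0.128 and an unadjusted p of 0.00158, and the pooled ratio was 58.8 (30.3 to 131), or 20.7 (9.72 to 50.6) without animal D and 122 (46.9 to 454) without A. DESeq2, thinned sums, suffixed labels as separate animals and xylene sums added, with or without hypertrophic xylene library 3, each called Igf1 in this comparison. The suffixed and xylene settings enter libraries of 1 animal as separate animals. It was not called without animal A (edgeR adjusted p = 0.319), without D (0.907) or without the proliferative library of D that held Xist alone (0.252). Leaving out either single library was chosen after seeing the data. At P2 the log2 difference of resting against hypertrophic was 0.93 ± 2.81 (edgeR adjusted p = 0.934). The test of the difference between the ages gave 6.88 ± 3.36 (edgeR adjusted p = 0.487), so the zone effect was not shown to differ between them. The P28 call was lost without animal A (edgeR adjusted p = 0.127), without B (0.182) and without D (0.238), with xylene sums added (log2 5.69, 0.115) and with a minimum of 10000 counts (log2 4.74, 0.0978). Without D, Igf1 was at least 18.5-fold higher in resting sums. All 22 alternatives kept its direction, with log2 values of 4.74 to 9.95 (edgeR or DESeq2 adjusted p from 7.14e-06 to 0.238). Perichondrium and fibroblast markers, summed, were lower in the resting than in the hypertrophic sum of each P28 animal, at 300.2, 745.8 and 139 TMM CPM in resting and 415, 932.2 and 2038 TMM CPM in hypertrophic sums of A, B and D. Single markers differed. Dcn (152.6 against 39.15) and Col3a1 (22.54 against 17.18) had higher medians in P28 resting than hypertrophic sums. Lum, Col1a1, Col1a2 and Postn had lower ones, and Pdgfra was at 0 in both. Their part in the Igf1 result was not tested.

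P28 against P2 within the resting zone, Igf1 averaged 262 ± 242 TMM CPM at P28 (SD, n = 3) and 3.50 ± 5.91 TMM CPM at P2 (n = 4). It rose by 7.60 ± 1.75 on the log2 scale (edgeR adjusted p = 0.0335), with a pooled ratio of 402 (191 to 1013) that was 1348 with P2 animal A left out, 159 with P2 animal G left out and 170 with P28 animal D left out. In this fit too, Igf1 passed the filter on low counts only through its P28 sums. The direction held within both deposit sets, with 137 and 107 TMM CPM at P28 against 12.3 and 1.73 at P2 in set A, and 541 at P28 against 0 and 0 at P2 in set B. The call was lost without P28 animal D (log2 4.13, edgeR adjusted p = 0.525), without P2 animal D (0.218), F (0.0752) or G (0.197), and with RLE scaling (0.0531), within a range of 3.53e-07 to 0.525 over 20 alternatives that kept the direction. Some shallow P2 libraries outside the tests hold more Igf1 than the tested ones. The resting libraries of P2 animals B and C had 14, 3 and 6 counts among 38083, 44209 and 50891, while that of animal E had 0 among 97514. With a minimum of 10000 counts the edgeR adjusted p was 0.285.

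**Figure D2:**
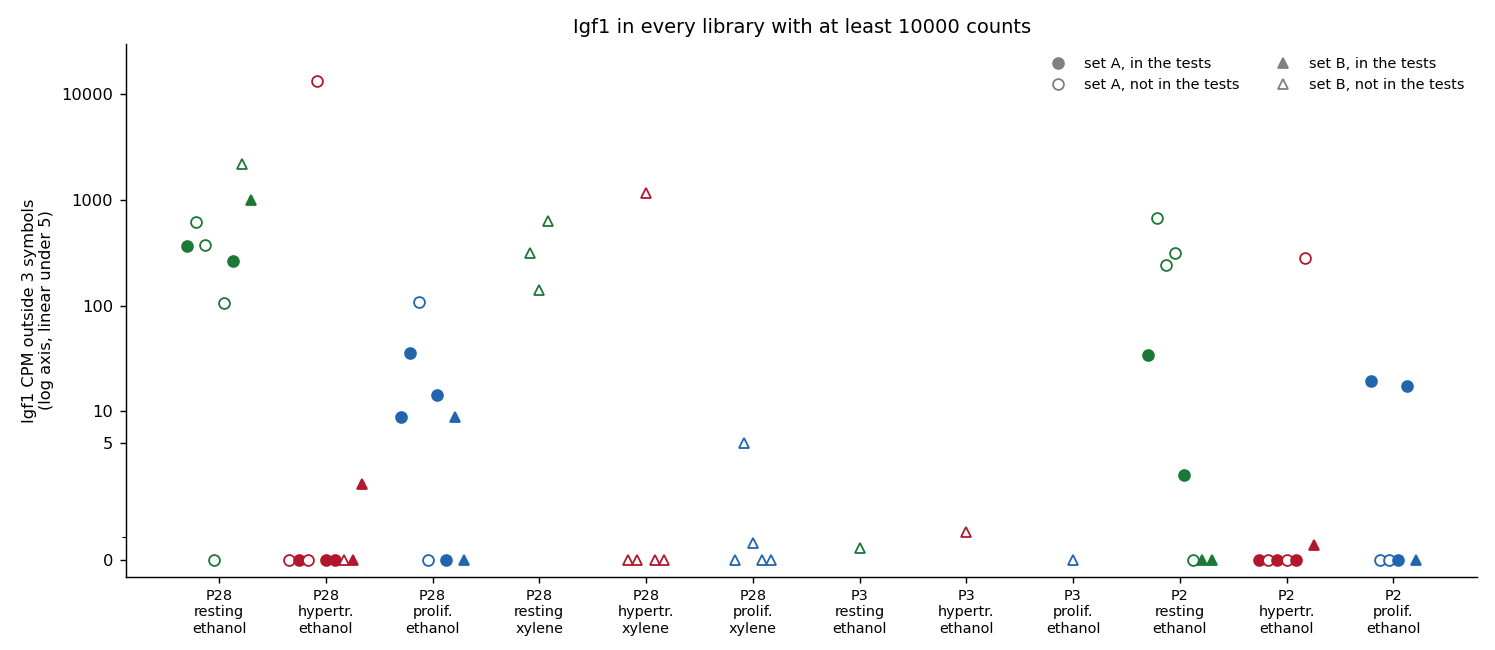
Igf1 CPM over the counts outside Rn45s, Lars2 and Glra2 (symmetric log axis, linear under 5) in each library with at least 10000 counts, by age, zone and fixation; filled points entered the tests. In P28 resting libraries Igf1 was found in 7 of 8 ethanol and 3 of 3 xylene libraries, while 1 ethanol and 1 xylene P28 hypertrophic library stand far above the others of their zone at 13460 and 1156 CPM.

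Of the receptors, Ghr, which binds GH and signals through JAK2 and STAT5, was highest in hypertrophic sums and in some P2 resting sums. At P28 it stood at 15.3, 19.5 and 15.03 TMM CPM in the resting sums of animals A, B and D, at 102, 30.5 and 29.5 in their hypertrophic sums and at 0, 5.45 and 25.4 in their proliferative sums. Every P28 hypertrophic sum was above every resting and proliferative sum of that age. At P2 it stood at 12.3, 105, 33.3 and 16.5 TMM CPM in the resting sums of A, D, F and G, at 28.1, 28.5, 21.6 and 112.5 in the hypertrophic sums of A, C, D and G, and at 0, 16.9, 6.39 and 0 in the proliferative sums of A, D, E and G. Hypertrophic sums again lay above all proliferative sums. For hypertrophic against proliferative the log2 difference was 2.61 ± 1.68 at P28 (edgeR adjusted p = 0.581) and 5.03 ± 2.07 at P2 (edgeR adjusted p = 0.207). DESeq2 called the P2 difference (log2 4.78, adjusted p = 0.048). The pooled ratio, whose interval covers counting error only, was 4.37 (2.38 to 8.31) at P28, with 2.45 (1.24 to 4.90) without animal A and 13.7 (5.09 to 46.1) without D. At P2 it was 25.4 (15.5 to 44.3), and 242 of the 254 hypertrophic counts lay in animal G, without which it was 1.57 (0.685 to 3.49) and the log2 difference 2.16 (edgeR adjusted p = 0.915).

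Igf1r, the IGF-1 receptor gene, was found in all 21 sums and leaned to the proliferative zone. At P28 it stood at 61.1, 24.4 and 33.8 TMM CPM in the resting sums of A, B and D, at 62.6, 88.4 and 46.6 in their hypertrophic sums and at 86.2, 87.3 and 393 in their proliferative sums. At P2 the resting sums of A, D, F and G had 81.02, 70.9, 148 and 113 TMM CPM, the hypertrophic sums of A, C, D and G 56.1, 56.9, 45.7 and 51.2, and the proliferative sums of A, D, E and G 58.1, 202, 102 and 295. P28 resting sums were all below the proliferative ones, and P2 hypertrophic sums all below both other zones. None of these differences passed the test. Resting against proliferative gave -2.05 ± 1.11 on the log2 scale at P28 (edgeR adjusted p = 0.4931), and hypertrophic against proliferative gave -1.78 ± 1.06 at P2 (edgeR adjusted p = 0.481). The P28 mean of proliferative sums rests on animal D, which stands far above A and B and whose sum may mix mice. Without its library that held Xist alone, resting against proliferative at P28 gave -2.19 on the log2 scale (edgeR adjusted p = 0.635).

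Igf2r (ENSMUSG00000023830.14, chr17:12682406-12769664, minus strand), the gene of the IGF-2 clearing receptor, which is imprinted in mouse, was high in the resting zone at P2 and low in the hypertrophic zone. At P2 it stood at 88.4, 345, 130 and 237 TMM CPM in the resting sums of A, D, F and G, at 18.7, 42.7, 9.61 and 6.05 in the hypertrophic sums of A, C, D and G, and at 25.8, 250, 38.3 and 169 in the proliferative sums of A, D, E and G. All resting sums lay above all hypertrophic sums. At P28 it stood at 20.4, 43.9 and 22.5 TMM CPM in the resting sums of A, B and D, at 7.83, 73.1 and 66.3 in the hypertrophic sums and at 81.6, 109 and 203 in the proliferative sums, so that the proliferative zone had the highest value in 3 of 3 animals.

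In P2 resting against hypertrophic zone Igf2r rose by 4.43 ± 1.30 on the log2 scale (edgeR adjusted p = 0.0241), with a pooled ratio of 34.5 (22.1 to 57.5) over the 3 animals with both zones. The call was lost without P2 animal D (edgeR adjusted p = 0.374) and without G (0.504), with a minimum of 50000 counts (log2 2.71, 0.1475), with that minimum outside 3 symbols (log2 5.32, 0.05715) and with a minimum of 10000 counts (log2 2.10, 0.2515), and 17 of 22 alternatives kept it (adjusted p from 3.79e-06 to 0.504). At P28 the same log2 difference was -0.55 ± 1.12 (edgeR adjusted p = 0.879). The difference between the ages, -4.98 ± 1.69, had an unadjusted p of 0.00326 and an edgeR adjusted p of 0.238. In P28 against P2 resting zone the log2 difference was -2.62 ± 1.06 (edgeR adjusted p = 0.341), with all P28 values below all P2 values. Perichondrium and fibroblast markers were also higher in P2 resting than in P2 hypertrophic sums in each animal with both zones, and their part in the P2 result was not tested. Airn, a non-coding RNA transcribed antisense from within Igf2r, stood at 100.7, 59.6, 97.7 and 148 TMM CPM in the P2 resting sums of A, D, F and G, at 0, 0, 0 and 4.65 in the P2 hypertrophic sums of A, C, D and G, and at 51.6, 6.94, 0 and 15.1 in the P2 proliferative sums of A, D, E and G. Since the libraries do not mark strand, reads from the bases that Igf2r and Airn share cannot be told apart, and the Igf2r counts are uncertain to that extent.

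**Figure D3:**
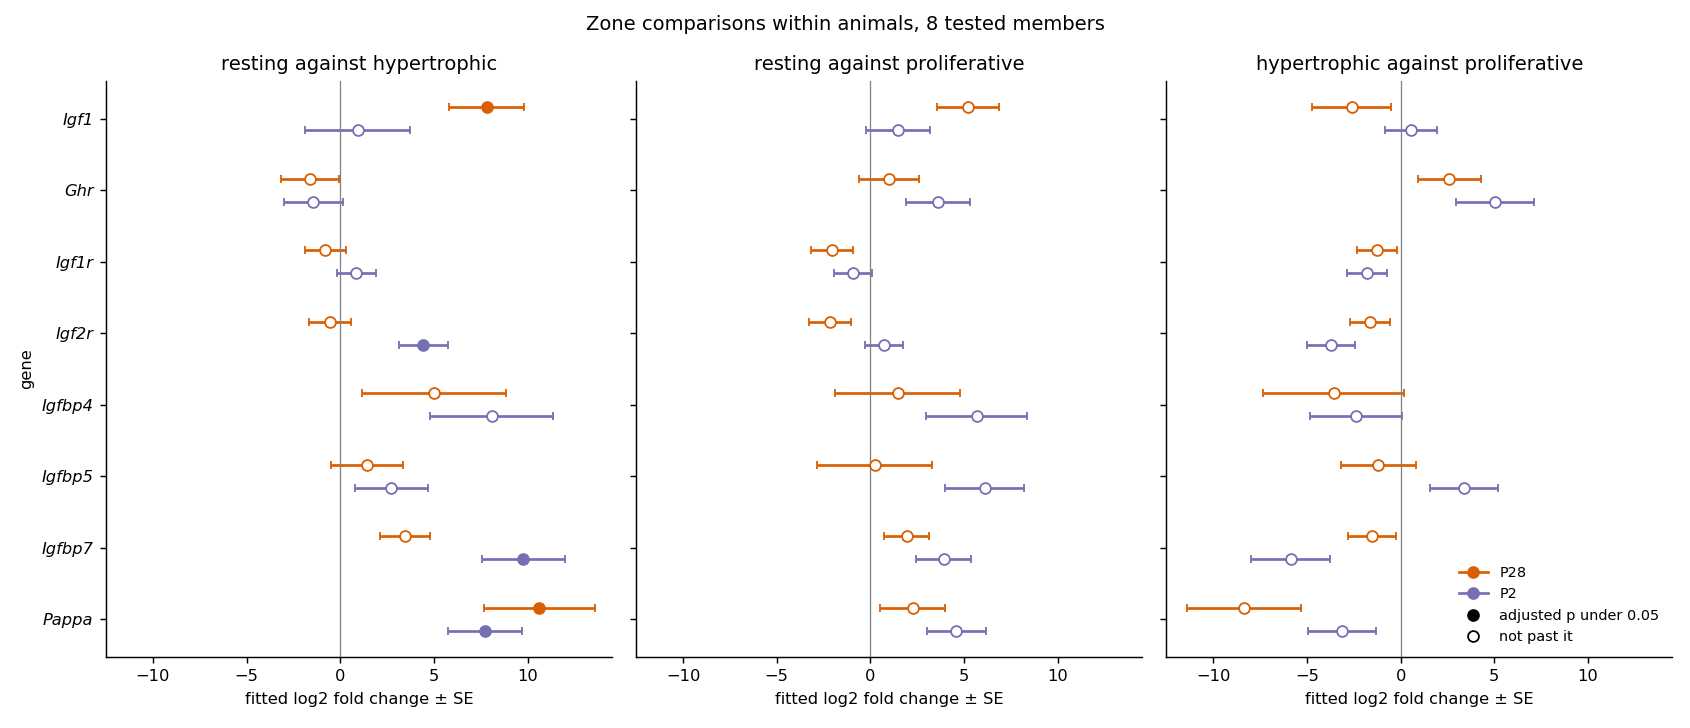
Fitted log2 fold change with SE (x axis) of the 8 tested members (y axis) for the zone comparisons, P28 in orange above P2 in violet; filled points passed an adjusted p of 0.05. Filled points stand only in resting against hypertrophic, and all of them to the right of 0; values of genes with 0 counts on one side depend on the prior count.

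Among the binders, Igfbp7, whose product binds IGFs weakly and is a secreted matrix-associated protein, had its highest mean in the resting zone at both ages (ENSMUSG00000036256.13, chr5:77349240-77408041, minus strand). At P28 it stood at 158, 234 and 165 TMM CPM in the resting sums of A, B and D, at 15.7, 33.5 and 7.37 in their hypertrophic sums and at 54.4, 42.5 and 44.4 in their proliferative sums. The zones did not overlap, in the order resting, proliferative, hypertrophic, in 3 of 3 animals. At P2 it stood at 12.3, 198, 158 and 98.8 TMM CPM in the resting sums of A, D, F and G, at 0 in all 4 hypertrophic sums and at 0, 28.7, 0 and 3.26 in the proliferative sums of A, D, E and G. The 4 hypertrophic sums together allow up to 1.09 TMM CPM, the value of 3 counts.

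In P2 resting against hypertrophic zone Igfbp7 was at least 97.5-fold higher, taking 3 counts over the hypertrophic sums in place of 0, and the edgeR adjusted p was 8.59e-04. The call was lost without P2 animal D (edgeR adjusted p = 0.117, at least 70.1-fold) and without G (0.173, at least 26.1-fold), and 20 of 22 alternatives kept it (adjusted p from 1.62e-05 to 0.173). At P28 the log2 difference was 3.44 ± 1.32 (edgeR adjusted p = 0.184), with a pooled ratio of 9.94 (5.88 to 17.9), or 17.3 (7.11 to 54.96) without animal B. The difference between the ages was -6.32 ± 2.39 (edgeR adjusted p = 0.304). Perichondrium and fibroblast markers differed in opposite directions at the ages, with P28 resting sums below and P2 resting sums above the hypertrophic sums of the same animal in all 6 animals with both zones, and their part in the results was not tested.

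Igfbp4 and Igfbp5, genes of the binder cut by PAPP-A and of a binder abundant in bone matrix, were found mainly in P2 resting sums. Igfbp4 stood at 20.4, 0 and 0 TMM CPM in the P28 resting sums of A, B and D and at 0, 21.6, 37.2 and 34.8 in the P2 resting sums of A, D, F and G. It had 0 counts in the hypertrophic sums of both ages and 2 and 3 counts in the proliferative sums of P28 and P2. In P2 resting against hypertrophic zone it was at least 27.5-fold higher, with an edgeR adjusted p of 0.155. Igfbp5 stood at 122, 0 and 0 TMM CPM in the P28 resting sums of A, B and D, at 23.5, 0 and 2.46 in their hypertrophic sums and at 0, 6.54 and 4.23 in their proliferative sums. At P2 it stood at 2.46, 154, 124 and 22.8 TMM CPM in the resting sums of A, D, F and G, at 37.4, 0, 0 and 6.98 in the hypertrophic sums of A, C, D and G, and at 6.45, 0, 0 and 0.296 in the proliferative sums of A, D, E and G. Resting against proliferative at P2 gave 6.08 ± 2.12 on the log2 scale (edgeR adjusted p = 0.419). Both genes were thus uneven between animals of the same zone, and the P28 resting value of each rests on animal A. Of the P28 resting sums, that of A also held the most hypertrophic markers, and their part in these values was not tested.

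Igfbp3, the gene of the main carrier of IGF in blood, was not detectable in any tested sum, where 3 counts per group would be 0.308 TMM CPM in P2 resting and 4.49 in P28 resting sums. Igfbp6, the gene of a binder that prefers IGF-2, was found at 17.2 TMM CPM in the resting sum of P2 animal A and at 1.09 in the proliferative sum of P28 animal B, and in no other sum.

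Pappa (ENSMUSG00000028370.7, chr4:65124174-65357509, plus strand), the gene of the protease that cuts IGFBP-4, was nearly absent from the hypertrophic zone. At P28 it stood at 25.4, 78 and 71.4 TMM CPM in the resting sums of A, B and D, at 0 in all 3 hypertrophic sums and at 2.27, 3.27 and 156 in the proliferative sums. At P2 it stood at 228, 105, 0 and 100 TMM CPM in the resting sums of A, D, F and G, at 0, 0, 0 and 0.93 in the hypertrophic sums of A, C, D and G, and at 0, 6.94, 0 and 7.99 in the proliferative sums of A, D, E and G. The resting sum of P2 animal F, with 2229892 counts, held none, and it has no other zone in the test.

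In P28 resting against hypertrophic zone Pappa was at least 17.2-fold higher (edgeR adjusted p = 0.0277). In the same comparison at P2 it rose by 7.70 ± 1.96 on the log2 scale (edgeR adjusted p = 0.00565), with a pooled ratio of 144 (39.8 to 1194) from 805 against 2 counts. The P28 call was lost without P28 animal A (edgeR adjusted p = 0.123), B (0.348, at least 9.25-fold) or D (0.271, at least 7.95-fold), without P2 animal D (0.0662) and when the D library with Xist but no Y-linked counts was dropped from its proliferative sum (0.0629), and 9 of 22 alternatives kept it (adjusted p from 0.0078 to 0.348). Without the animal block its edgeR adjusted p was 0.0976. The P2 call was lost without P2 animal A (edgeR adjusted p = 0.0649), D (0.168) or G (0.136, at least 23.97-fold), and 18 of 22 alternatives kept it (adjusted p from 5.68e-04 to 0.168). Against the proliferative zone the log2 difference was 2.24 ± 1.74 at P28 (edgeR adjusted p = 0.671) and 4.57 ± 1.57 at P2 (edgeR adjusted p = 0.375).

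Per kilobase of exon, the members differed in level by zone. In P28 resting sums Igfbp7 averaged 154 ± 34.8 TMM CPM per kilobase, followed by Igf1 at 26.4 ± 24.5 (SD, n = 3). Igfbp5, Pappa, Igf2r, Igf1r, Ghr and Igfbp4 averaged 1.54 to 6.78 there, and these neighbours in the order lay within their SD of each other. In P2 resting sums Igfbp7 averaged 96.6 ± 66.8 TMM CPM per kilobase, Igf2r 21.5 ± 12.4 and Igfbp5 12.6 ± 12.4 (SD, n = 4), while Igf1 was last of the 8 at 0.354 ± 0.596. The proliferative zone was led by Igfbp7 at 38.97 ± 5.29 at P28 and by Igf2r at 12.97 ± 11.6 at P2. In the hypertrophic zone at P28 Igfbp7 averaged 15.6 ± 11.1, and at P2 Ghr at 5.27 ± 4.79 and Igf1r at 3.12 ± 0.31 lay within the SD of Ghr, with Igf1r above Ghr in animals A, C and D and Ghr above Igf1r in G.

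The other genes of the pathway were read from a list of 37, of which 27 were tested in the zone fit. Alternative settings were not examined for these genes. In resting against hypertrophic zone, 0 rose and 2 fell at P28 (1.77% of all genes called), and 1 rose and 2 fell at P2 (3.77%). Grb14, an adaptor that inhibits insulin receptor signalling, fell in the resting zone at both ages. It averaged 2.95 ± 2.64 TMM CPM in resting, 272 ± 308 in hypertrophic and 142 ± 53.7 in proliferative sums at P28, and 1.30 ± 2.59 in resting, 228 ± 180 in hypertrophic and 15.7 ± 10.6 in proliferative sums at P2 (SD). The edgeR adjusted p of resting against hypertrophic was 0.00443 at P28 and 1.69e-05 at P2. That of resting against proliferative at P28 was 0.0228, where 0 genes of the list rose and 1 fell (0.561% of all genes called). Hypertrophic against proliferative held 1 increase at P28 (1.12% of all genes called) and 2 at P2 (2.31%), with no decrease. Gsk3b, the gene of a kinase that AKT inhibits, rose in it at both ages, to 742 ± 128 TMM CPM in hypertrophic sums against 46.98 ± 32.4 in proliferative sums at P28 (edgeR adjusted p = 0.00161), and to 519 ± 253 against 70.9 ± 34.6 at P2 (edgeR adjusted p = 0.0367). Grb14 was the other increase at P2 (edgeR adjusted p = 0.0366). Gsk3b was also the other decrease in resting against hypertrophic zone, with 39.01 ± 37.3 TMM CPM in resting sums at P28 (edgeR adjusted p = 4.62e-04) and 81.9 ± 42.6 TMM CPM in resting sums at P2 (edgeR adjusted p = 0.038).

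Pappa2, the gene of a protease related to PAPP-A that cuts IGFBP-3 and IGFBP-5, was called higher in P2 resting against hypertrophic zone (edgeR adjusted p = 0.00139). Its 799 resting counts lay in 3 of 4 sums, with a median of 26.29 and a maximum of 125.6 TMM CPM. Most of these counts lay in animal G, which had the maximum and whose resting sum may stem from more than 1 mouse. The hypertrophic sums of the animals with these resting counts held 0 counts of Pappa2. Its means over all sums did not follow, at 44.6 ± 58.8 TMM CPM in resting and 71.2 ± 142 TMM CPM in hypertrophic sums (SD, n = 4 each), since all 20 hypertrophic counts lay in animal C, which has no other zone in the test. Htra1, the gene of a serine protease that can cut IGF binders, was the 1 gene of 19 tested that rose in P28 against P2 resting zone, with 256 ± 216 TMM CPM at P28 and 1.86 ± 2.29 at P2 (log2 7.22 ± 1.29, edgeR adjusted p = 0.00144). No list gene fell there, where 0.872% of all genes were called. Between the ages none of 22 was called in the proliferative zone (0.679% of all genes) and none of 12 in the hypertrophic zone (0.102%). In resting against proliferative at P2 none of 27 was called (0.259% of all genes), with 3 at an unadjusted p under 0.05 (edgeR), against 4.14% of all genes. With genes at their bounds, the median log2 fold change of the list was -1.22 beside -0.27 over all genes for resting against hypertrophic at P28, 0.51 beside 0.52 for the same at P2, and -1.26 beside -0.53 for P28 against P2 in the resting zone.

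Libraries outside the tests extend these levels, given as CPM over the counts outside Rn45s, Lars2 and Glra2, with no test. In xylene-fixed P28 sections, Igf1 stood at 315, 140 and 632 CPM in the 3 resting libraries with at least 10000 counts, from 1, 135 and 273 counts. It was 0 in 4 of 5 hypertrophic libraries and 0 to 4.998 CPM in the 5 proliferative libraries. Pappa stood at 111 and 146 CPM in the 2 deepest resting libraries, at 0 to 23.8 in hypertrophic and at 0 to 111 in proliferative libraries. Hypertrophic xylene library 3 of animal D stands apart. Its perichondrium and fibroblast markers summed to 234000 CPM, against 1386 to 4997 CPM in the other 4 hypertrophic xylene libraries, and it held 2434 Igf1, 586 Igfbp4, 1884 Igfbp5, 225 Igfbp3 and 240 Igfbp6 counts. With all xylene sums added, resting against hypertrophic at P28 gave an edgeR adjusted p of 0.115 for Igf1 and 0.0853 for Pappa. Without that library, a setting chosen after seeing the data, the edgeR adjusted p was 7.14e-06 for Igf1 and 0.0279 for Pappa. In both fits the xylene and ethanol sums of animal D entered as separate animals. Igfbp7 did not keep the zone order in xylene sections, at 0, 340 and 139 CPM in the 3 resting, 16.7 to 522 in the 5 hypertrophic and 31.8 to 157 in the 5 proliferative libraries. Igf2r likewise overlapped between zones, at 94.4 to 315 CPM in resting, 54.9 to 220 in hypertrophic and 15.9 to 227 in proliferative libraries. The resting library with 0 CPM of Igfbp7 held 3175 counts outside the 3 symbols, and 315 CPM is 1 count in it. The hypertrophic ranges of both genes include library 3.

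The P3 animal had 1 library per zone of 2182195 counts or more, and its proliferative library held 355 Xist and 311 Y-linked counts. Igfbp7 stood at 285 CPM in its resting, 4.83 in its hypertrophic and 47.6 in its proliferative library, and Igf2r at 319, 12.7 and 251.1 CPM in the same order. Igf1 stood at 0.536, 1.21 and 0 CPM, Pappa at 15, 0 and 2.47 CPM, and Ghr at 323, 106 and 23.5 CPM.

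**Figure D4:**
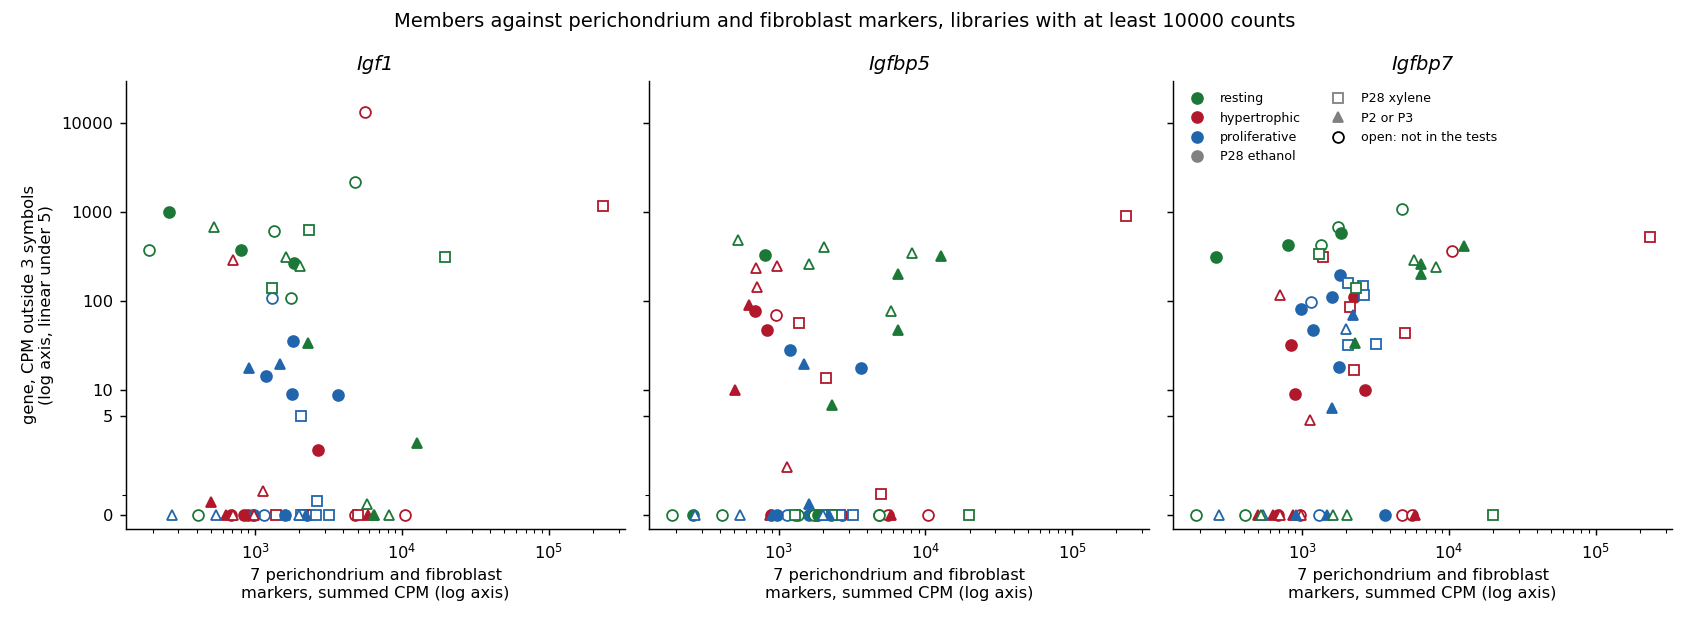
CPM of Igf1, Igfbp5 and Igfbp7 (y axis, symmetric log, linear under 5) against the summed CPM of 7 perichondrium and fibroblast markers (log x axis) in each library with at least 10000 counts, coloured by zone. The xylene hypertrophic library at 234000 CPM of markers stands alone at the right and holds Igf1 at 1156 CPM. The P28 resting library with the fewest counts of markers among the tested ones, at 259 CPM, holds Igf1 at 1008 CPM. The highest Igf1, 13460 CPM, lies in P28 hypertrophic ethanol library 4, outside the tests. How the markers bear on these genes was not tested.

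For members with counts in at least 15 of the 21 sums, the 3 tested genes with the most alike profile were found by Pearson's r of log2 TMM CPM across the sums. The sums share animals and depth, and the values are a description. For Igfbp7 these were Antxr1 (r = 0.90), Mxra8 (0.86) and Cmtm5 (0.86). For Igf2r they were Prickle1 (0.87), Cry2 (0.82) and Zfpm2 (0.81), for Igf1r BC017158 (0.84), Chid1 (0.82) and 2410006H16Rik (0.81), and for Ghr Crim1 (0.70), Fn1 (0.67) and H1f0 (0.67). Igf1, Igfbp4, Igfbp5 and Pappa had counts in 12, 6, 13 and 12 sums and were left out.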

How the data were processed

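The deposited tables hold read counts per gene symbol for 68 libraries. Per the submitters' processing notes, the authors trimmed reads with cutadapt, aligned them with STAR 2.5.2b to mm10 and made the counts with featureCounts 1.5.3 of Subread; no source used here states the annotation, multi-mapping or strand settings, and SMART-seq2 does not mark strand. For 32 libraries with 2 columns, the repeat runs differed by sampling noise (mean chi-square per gene at most 1.03 where over 100 genes could be compared) and were summed. The 26 ethanol libraries of P2 and P28 with at least 100000 of all counts gave 21 sums, 1 for each animal and zone. Zones were compared in 1 edgeR 4.0.16 robust quasi-likelihood fit (R 4.3.3, limma 3.58.1) with the animal as a block, TMM scaling, filterByExpr and Benjamini-Hochberg adjustment over all genes tested, with a threshold of 0.05. For the ages, each zone had its own fit with a term for the deposit set. The zones of an animal are paired by the labels; their deviations correlated at -0.00358 to 0.187. Pooled ratios have exact 95% intervals that cover counting error only, and a group with 0 counts was set to 3 counts over the group. DESeq2 1.42.0 and other settings were alternatives. The code was tested on simulated data. Gene positions are GENCODE M21, GRCm38, and figures and tables used Python 3.11.15, pandas 2.3.3, scipy 1.17.1 and matplotlib 3.10.9. All members are named, and other pathway genes where they passed the threshold. Members and lists were chosen with earlier results of these data known.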

Additional observations from a re-analysis of the deposited data

Results flagged for a closer look

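Of 16 groups of sums checked for a value far from the rest, 2 held one, where chance gives about 1 in 20 groups. Ghr stood at 112.5 TMM CPM in the P2 hypertrophic sum of animal G, against 21.6 to 28.5 in the other hypertrophic sums. Igfbp7 stood at 28.74 TMM CPM in the P2 proliferative sum of animal D, against 0 to 3.26 in the other proliferative sums.

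Libraries outside the tests exceeded the highest tested library for some members, in CPM over the counts outside Rn45s, Lars2 and Glra2. P28 hypertrophic ethanol library 4 of animal A held Igf1 at 13460 CPM, from 48 of 43901 counts, with perichondrium and fibroblast markers at 5607 CPM. P28 hypertrophic xylene library 3 held Igf1 at 1156, Igfbp3 at 106.9, Igfbp4 at 278.3, Igfbp5 at 894.8 and Igfbp6 at 114.0 CPM, with those markers at 234000 CPM. P28 resting ethanol library 7 of animal C held Igf1 at 2167 and Igfbp7 at 1071 CPM. P28 resting ethanol library 5 of animal B held Igfbp7 at 683.0 CPM, and library 2 of animal A held Ghr at 251.9 CPM. P28 proliferative xylene library 1 held Igfbp4 at 112.0 CPM. The P3 resting library held Ghr at 323.1 CPM. P2 resting ethanol library 2 of animal B held Igfbp5 at 479.0 and Pappa at 718.5 CPM, and library 6 of animal E held Igfbp5 at 344.9 CPM.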

How the results depend on the processing

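Over all alternatives, 1632 member log2 fold changes kept their direction and their side of the threshold, 35 lost a call, 14 gained one, 79 that were never called changed sign and 0 called ones reversed. The cause was not tested for any of the changes below. In P28 resting against hypertrophic zone, 2 members were called, against 4 by DESeq2 and 1 with no filter on low counts, with a minimum of 50000 counts, with that minimum outside 3 symbols, with thinned sums, with suffixed labels as separate animals and, chosen after seeing the data, without the P28 animal D proliferative library that held Xist alone. The count was 0 with xylene sums added and with a minimum of 10000 counts (added after seeing the data), and 0 to 2 when 1 animal was left out. In the fit with no replicate block it was 1, and the block changed no other count of members called. In P2 resting against hypertrophic zone 3 were called, against 1 with a minimum of 50000 counts outside 3 symbols, 2 with a minimum of 50000 or of 10000 counts, which lost Igf2r (log2 2.71 and 2.10), and 0 to 3 when 1 animal was left out. In P28 resting against proliferative zone 0 were called, against 1 (Igf1) by DESeq2, with thinned sums, with suffixed labels as separate animals and with xylene sums added, with or without hypertrophic xylene library 3 (left out after seeing the data). In P2 resting against proliferative zone it was 1 (Igfbp5) with a minimum of 10000 counts. In P2 hypertrophic against proliferative zone it was 3 by DESeq2 (Igfbp4, Ghr and Igf2r) and 0 to 1 when 1 animal was left out. The age difference of resting against hypertrophic was called for 1 (Igf2r) by DESeq2. In P28 against P2 resting zone 1 was called, against 0 with RLE size factors, 0 with a minimum of 10000 counts and 0 to 1 when 1 animal was left out. Where both groups held 3 counts or fewer, as for Igfbp3, a difference was not detectable at this depth, and calls against a group of 0 to 2 counts rest on bounds or wide intervals.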
